A study of Arabidopsis thaliana with 56 samples.

Results

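The transcription factor (TF) WRKY33 was assayed in Arabidopsis thaliana root cells by the TARGET assay, in which a TF held in the cytoplasm is released into the nucleus and the genes that respond are read by RNA-seq. Of the 56 libraries of the series, 3 carried the WRKY33 plasmid, and they were compared with the 3 empty vector (EV) libraries of the same batch, batch 2. The other 15 libraries of batch 2 carried 5 other TFs, DIV2, GBF2, HSFA6A, MYB3 and MYBR1, with 3 libraries each. Members were taken by their titles, and no measured value entered the choice.

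The WRKY33 cells and the EV cells were both protoplasts, which are cells without their walls, made from roots of wild-type Col-0 seedlings aged 10 days. Both received 35 µM cycloheximide, which blocks protein synthesis, and then 10 µM dexamethasone, which releases the TF into the nucleus in WRKY33 cells. EV cells therefore control for transfection, cycloheximide and dexamethasone. Transfected cells were sorted by a fluorescent marker on the vector and polyadenylated RNA was sequenced. The study describes GFP and RFP versions of the vector, and the labels do not state which one a library carried, so WRKY33 and a difference in marker cannot be told apart in the comparison with EV. Each group came from 1 transfection that was split into 3 wells, so the error terms and p-values measure only the spread between wells. Protoplasts of the whole root mix cell types, and fewer cells of a type and less RNA per cell cannot be told apart in such bulk samples.

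WRKY33 is a WRKY TF with a pair of WRKY domains, and it binds the W-box, a short DNA word with the core TTGAC. In whole plants it is phosphorylated by the MAP kinases MPK3 and MPK6, and it is known for switching on the synthesis of camalexin, an antimicrobial indole compound, and for resistance to the fungus Botrytis cinerea. Its known targets also include genes of ethylene, jasmonate and ABA metabolism.

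The regions upstream of several genes with large responses are shown here because they hold, or lack, this word. W-boxes (TTGACC or TTGACT, on either strand, so GGTCAA or AGTCAA on the printed strand) stand in capitals. Each sequence was read from RefSeq TAIR10.1, runs 5′ to 3′ on the strand of its gene, and ends at the base before the annotated gene start, except that of PAD3, which covers 400 to 200 bases upstream. FRK1 encodes a receptor kinase that serves as an early marker of immune signalling, and the stretch lies at chr2:8329945-8330144 on the minus strand.
FRK1: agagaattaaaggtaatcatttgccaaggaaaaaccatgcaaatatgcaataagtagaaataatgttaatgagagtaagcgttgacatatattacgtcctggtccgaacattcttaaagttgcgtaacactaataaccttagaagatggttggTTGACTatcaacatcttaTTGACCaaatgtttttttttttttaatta
PROPEP2 encodes the precursor of a danger peptide, with the stretch at chr5:25934318-25934567 on the plus strand.
PROPEP2: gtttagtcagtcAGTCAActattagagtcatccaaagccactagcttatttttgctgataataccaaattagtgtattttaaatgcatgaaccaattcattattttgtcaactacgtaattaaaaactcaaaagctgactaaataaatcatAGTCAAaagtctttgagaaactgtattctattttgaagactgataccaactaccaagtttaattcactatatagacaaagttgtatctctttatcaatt
FOX1 encodes a berberine bridge-like oxidase of indole-carbonyl nitrile synthesis, with the stretch at chr1:9128569-9128868 on the minus strand.
FOX1: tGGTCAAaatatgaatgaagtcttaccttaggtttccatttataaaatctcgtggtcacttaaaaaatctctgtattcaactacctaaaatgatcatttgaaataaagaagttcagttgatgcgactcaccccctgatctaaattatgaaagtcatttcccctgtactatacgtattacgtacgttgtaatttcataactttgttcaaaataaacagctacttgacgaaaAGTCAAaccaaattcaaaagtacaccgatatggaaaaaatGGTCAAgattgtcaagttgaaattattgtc
HB-2 encodes a homeodomain-leucine zipper TF of shade responses, with the stretch at chr4:9448864-9449113 on the plus strand.
HB-2: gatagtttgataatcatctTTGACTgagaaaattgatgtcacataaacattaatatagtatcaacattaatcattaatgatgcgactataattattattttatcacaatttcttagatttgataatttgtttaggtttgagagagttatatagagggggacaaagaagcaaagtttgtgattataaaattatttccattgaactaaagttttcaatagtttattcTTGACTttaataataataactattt
AT4G18540 encodes an uncharacterized protein, with the stretch at chr4:10223077-10223326 on the minus strand.
AT4G18540: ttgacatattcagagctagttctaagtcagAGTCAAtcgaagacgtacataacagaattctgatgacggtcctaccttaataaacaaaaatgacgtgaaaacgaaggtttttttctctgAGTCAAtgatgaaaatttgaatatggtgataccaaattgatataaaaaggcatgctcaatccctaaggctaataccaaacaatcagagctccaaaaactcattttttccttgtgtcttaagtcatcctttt
AT1G06020 encodes a pfkB-like carbohydrate kinase, with the stretch at chr1:1824050-1824249 on the plus strand.
AT1G06020: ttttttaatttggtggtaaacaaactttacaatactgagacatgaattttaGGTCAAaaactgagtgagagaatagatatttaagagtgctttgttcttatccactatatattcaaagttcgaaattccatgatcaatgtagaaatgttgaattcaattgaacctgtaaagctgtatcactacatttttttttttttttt
PAD3 encodes the cytochrome P450 of the last step of camalexin synthesis, with the stretch at chr3:9887517-9887717 on the plus strand, around the 1 W-box within 500 bases of the gene.
PAD3: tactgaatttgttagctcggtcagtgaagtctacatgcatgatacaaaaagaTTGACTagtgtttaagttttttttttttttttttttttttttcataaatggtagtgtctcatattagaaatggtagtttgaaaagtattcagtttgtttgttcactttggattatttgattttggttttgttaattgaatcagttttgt
ICS1 encodes isochorismate synthase of salicylic acid synthesis, with the stretch at chr1:28070095-28070294 on the plus strand, and it had no W-box within 500 bases.
ICS1: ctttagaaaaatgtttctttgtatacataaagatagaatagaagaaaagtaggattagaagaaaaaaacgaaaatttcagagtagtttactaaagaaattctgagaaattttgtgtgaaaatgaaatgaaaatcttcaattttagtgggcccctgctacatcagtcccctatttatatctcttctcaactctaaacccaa
HTB4, a repressed gene of histone H2B, has its stretch at chr5:24126677-24126876 on the plus strand, also with no W-box within 500 bases.
HTB4: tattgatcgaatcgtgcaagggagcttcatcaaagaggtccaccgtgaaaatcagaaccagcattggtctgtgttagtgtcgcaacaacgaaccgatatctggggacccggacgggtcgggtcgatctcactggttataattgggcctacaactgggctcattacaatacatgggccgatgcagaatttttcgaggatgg

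The 3 WRKY33 libraries held 12553482 to 15242157 counts and the 3 EV libraries 12975619 to 19914633. Counts were scaled to CPM, the counts of a gene relative to the library total, with TMM factors over the 21 libraries of batch 2. A group of 4 loci next to annotated ribosomal RNA genes took 10.9%, 7.2% and 4.8% of the counts in WRKY33 libraries, against 25.1%, 14.3% and 5.7% in EV libraries, and 968 genes were called induced and 217 repressed without them, against 947 and 226 with them. On the first principal component of batch 2, which carried 36.5% of the variance, the WRKY33 libraries lay at -42.5 to -36.9, the EV libraries at -22.2 to -19.3 and the 15 other TF libraries between -19.1 and 42. The EV libraries thus lay between WRKY33 and most other TFs, and a gene can stand higher in WRKY33 than in EV and yet lower than in the other TFs. Of the root cell markers checked, 0 of 20 tested passed edgeR's test or DESeq2, and 2 stele markers were lower at an unadjusted p under 0.05. The 7 endodermis markers, among them SCR and MYB36, summed to 58.8 to 69.4 CPM in WRKY33 cells, against 60.6 to 66.3 CPM in EV cells. The 7 stele markers summed to 30.0 to 38.6 CPM in WRKY33 cells, against 45.4 to 60.5 CPM in EV cells, without overlap. The markers of root cap (8.65 to 14.8 CPM in WRKY33 cells, against 10.5 to 12.2 CPM in EV cells), cortex (1.44 to 2.91 against 1.96 to 3.98) and epidermis and hair (0.895 to 6.41 against 1.57 to 6.59) overlapped. EXPA7, COBL9 and PRP3 of epidermis and hair, CO2 of cortex and all 5 leaf markers were at or near 0.

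The transcript of WRKY33 itself was checked first. WRKY33 had 7295, 7438 and 8321 CPM in WRKY33 cells, against 3689, 3840 and 3803 CPM in EV cells. All 3 WRKY33 libraries were above all EV libraries, with means of 7684 ± 556 and 3778 ± 78.6 CPM (SD, n = 3 each). The other 15 libraries of batch 2 lay between 2422 and 4403 CPM. The log2 fold change over EV was 1.03 (SE 0.12, edgeR FDR 4.2e-05). The gene, at chr2:16108235-16110766 on the plus strand, overlaps AT2G38480 on the opposite strand, and the counts do not separate plasmid transcripts from those of the native gene. WRKY33 is left out of everything that follows.

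The first question was which genes respond to WRKY33. Genes with a false discovery rate (FDR, Benjamini-Hochberg) under 0.05 in edgeR's quasi-likelihood test were called induced or repressed, on 18869 genes tested. WRKY33 induced 947 genes (5.02% of those tested) and repressed 226 (1.2%), so 80.7% of the calls were inductions. The median absolute log2 fold change was 0.96 for induced and 0.76 for repressed genes. Over all genes the median with signs kept was -0.04, which is no measure of the size of change. The inductions were also the larger responses, as 140 induced genes and 7 repressed genes reached an absolute log2 fold change of 2 (450 and 54 reached 1). In 944 of the 947 induced genes all 3 WRKY33 libraries lay above all 3 EV libraries of the batch, which held for 14% of all genes tested, and in all 226 repressed genes they lay below, against 13.5%. For 556 induced genes all 3 WRKY33 libraries lay above every one of the 18 other libraries of batch 2 (4.54% of all genes), and for 32 repressed genes below (0.562%). The counts depended on single libraries, with 622 induced genes without EV replicate 1. The repressed genes numbered 121 without WRKY33 replicate 2, 134 without WRKY33 replicate 3, and 95, 94 and 83 without EV replicates 1, 2 and 3.

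**Figure D1:**
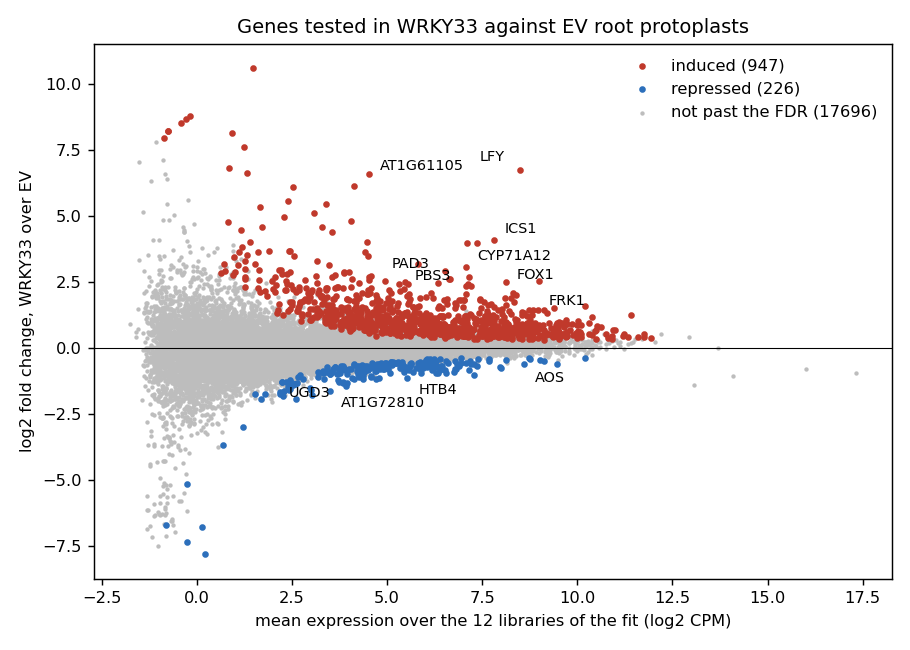
Log2 fold change of WRKY33 over EV (y axis) against mean expression in log2 CPM over the 12 libraries of the fit (x axis), with induced genes in red, repressed genes in blue and all others in grey. Red points reach far above 0, with ICS1 at 4.08, while few blue points with high expression pass below -1.

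Genes with large inductions, taken among those with a mean of at least 3 log2 CPM and no overlap with EV, came from several protein families. AT1G61105, which encodes a TIR domain protein of the kind found in immune receptors, had 73.6, 77.3 and 122 CPM in WRKY33 cells, against 0.412, 1.25 and 1.04 CPM in EV cells. Its log2 fold change was 6.60 (SE 0.39, edgeR FDR 5.69e-08). AT1G06020, the pfkB-like kinase, had 63.2, 69.8 and 72.5 CPM in WRKY33 cells, against 1.58, 1.07 and 0.261 CPM in EV cells, and its log2 fold change was 6.14 (SE 0.50, edgeR FDR 1.43e-06). Both genes were close to silent in EV cells. TBL15, a trichome birefringence-like protein of a family that acetylates wall polysaccharides, had 31, 42.4 and 46.8 CPM in WRKY33 cells, against 1.1, 1.16 and 0.392 CPM in EV cells (log2 fold change 5.47, SE 0.39, edgeR FDR 3.37e-07). PNP-A, an expansin-like plant natriuretic peptide, had 28.3, 25.2 and 36.7 CPM in WRKY33 cells, against 0.137, 1.11 and 1.31 CPM in EV cells (log2 fold change 5.10, SE 0.63, edgeR FDR 7.06e-05). BIA1, an acyltransferase that inactivates brassinosteroids, had 54.6, 61.7 and 69.6 CPM in WRKY33 cells, against 3.3, 1.95 and 1.5 CPM in EV cells (log2 fold change 4.80, SE 0.60, edgeR FDR 9.31e-05). That no WRKY33 library of these 5 genes overlapped with EV follows from the rule by which they were taken.

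Of the same rank were AT5G65980, of the auxin efflux carrier family, with 26.6, 39.8 and 35.7 CPM in WRKY33 cells, against 1.99, 0.928 and 1.44 CPM in EV cells (log2 fold change 4.57, SE 0.51, edgeR FDR 2.47e-05), and the aspartyl protease AT3G51350, with 42.1, 46.6 and 41 CPM in WRKY33 cells, against 2.2, 3.11 and 0.718 CPM in EV cells (log2 fold change 4.40, SE 0.54, edgeR FDR 7.1e-05). The C1 domain protein AT2G17740 had 57.1, 74.3 and 104 CPM in WRKY33 cells, against 5.36, 4.64 and 4.37 CPM in EV cells (log2 fold change 4.04, SE 0.35, edgeR FDR 2.36e-06). The separation of these 3 genes from EV follows from the same rule. The uncharacterized AT4G18540, whose upstream sequence is shown above, had 465, 596 and 694 CPM in WRKY33 cells, against 24.2, 33.7 and 53.3 CPM in EV cells (log2 fold change 3.98, SE 0.38, edgeR FDR 6.06e-06). The leucine-rich repeat kinase AT5G59680 had 367, 465 and 535 CPM in WRKY33 cells, against 20.7, 33.9 and 32.5 CPM in EV cells (log2 fold change 3.97, SE 0.43, edgeR FDR 1.86e-05). Both are well expressed in WRKY33 cells, and both were taken by the same rule. LFY, the floral meristem regulator LEAFY, had 24.5, 15.3 and 6.44 CPM in WRKY33 cells, against 0, 0.0928 and 0.326 CPM in EV cells, with a log2 fold change of 6.74 (SE 1.40, edgeR FDR 0.00658). Its counts ran from 742 to 53349 in the 20 libraries of batch 3, from 0 to 3 in the 15 libraries of batch 1 and from 0 to 54 in the other 18 libraries of batch 2, and the part of other libraries in the LFY values was not tested. LFY met the rule of at least 3 log2 CPM by a mean of 8.485 over the 12 libraries of the fit, which include the EV libraries of batch 3. Against MYBR1 alone the log2 fold change of LFY was 2.96 and did not pass (edgeR FDR 0.0687). It passed against DIV2, GBF2, HSFA6A and MYB3.

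Several induced genes had no counts in EV. RLP11, a receptor-like protein, had 463 counts over the WRKY33 libraries and 0 over the EV libraries. Against a floor of 3 counts over the group it was 195-fold higher, with a lower 95% counting limit of 158. The cysteine-rich receptor kinase CRK7 had 130 counts in WRKY33 and 0 in EV, 54.6-fold higher against the same floor, with a lower limit of 43.8. Genes with no counts in EV were 7 of the 947, and 4 of the 226 repressed genes had 0 counts in WRKY33, among them the endo-mannanase gene MAN7 with 0 counts in WRKY33 and 83 in EV.

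The camalexin and indole glucosinolate pathway was examined next. Of 25 genes tested from a list of 26, 8 were induced and 0 repressed, against 5.02% and 1.2% of all genes. Their median log2 fold change was 0.43, against -0.04 over all genes. None was lower at an unadjusted p under 0.05, and DESeq2 called 11 induced and 0 repressed. The first enzyme, CYP79B2, converts tryptophan to indole-3-acetaldoxime. CYP79B2 had 70.1, 88.1 and 82.2 CPM in WRKY33 cells, against 15.2, 14.4 and 11.5 CPM in EV cells. The log2 fold change of CYP79B2 was 2.55 (SE 0.25, edgeR FDR 7.29e-06). CYP71A12, at chr2:13099486-13101371 on the minus strand, dehydrates the oxime. CYP71A12 had 322, 433 and 474 CPM in WRKY33 cells, against 52, 48.5 and 45.5 CPM in EV cells. The log2 fold change of CYP71A12 was 3.08 (SE 0.41, edgeR FDR 0.000168). PAD3 (CYP71B15), at chr3:9887917-9889791 on the plus strand, closes the pathway to camalexin. PAD3 had 263, 271 and 273 CPM in WRKY33 cells, against 46.7, 39.8 and 44.7 CPM in EV cells. The log2 fold change of PAD3 was 2.63 (SE 0.16, edgeR FDR 6.57e-08). Groups did not overlap in any of the 3 genes, as in 944 of the 947 induced genes. The means of PAD3 were 269 ± 5.21 CPM in WRKY33 cells and 43.7 ± 3.54 CPM in EV cells (SD, n = 3 each).

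FOX1 had 658, 850.1 and 976 CPM in WRKY33 cells, against 125, 151 and 165 CPM in EV cells (log2 fold change 2.50, SE 0.22, edgeR FDR 2.78e-06). The neighbouring berberine bridge-like genes AT1G26410 and AT1G26420 were induced as well. AT1G26410 had 109.5, 132 and 179 CPM in WRKY33 cells, against 21.6, 29.4 and 27.4 CPM in EV cells (log2 fold change 2.43, SE 0.27, edgeR FDR 2.96e-05), and AT1G26420 had a log2 fold change of 1.24 (edgeR FDR 0.00176). The smaller inductions of the list lay at branch points and in glucosinolate modification. CYP83B1, which diverts the oxime to indole glucosinolates, had 262, 267 and 310.3 CPM in WRKY33 cells, against 124, 126 and 136 CPM in EV cells (log2 fold change 1.12, SE 0.11, edgeR FDR 1.06e-05). CYP71B6, which acts on indole-3-acetonitrile, CYP81F2, which hydroxylates indole glucosinolates, and IGMT2, which methylates them, had log2 fold changes of 0.77, 0.83 and 0.88 (edgeR FDR 0.00149, 0.00635 and 6.15e-05).

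Not all known members passed the test. CYP71A13, the close relative of CYP71A12, was listed at 0 counts in all 6 libraries. It overlaps AT2G30766 on the opposite strand, so this 0 is uncertain. CYP79B3, the second tryptophan oxidase, had 0.962, 1.86 and 1.14 CPM in WRKY33 cells, against 1.1, 0.278 and 0 CPM in EV cells (edgeR FDR 0.741). CYP82C2, which makes the cyanogenic 4-hydroxyindole-3-carbonyl nitrile, had 4.73, 5.15 and 2.68 CPM in WRKY33 cells, against 0.824, 1.11 and 0.653 CPM in EV cells, with a log2 fold change of 2.26 (SE 0.83, edgeR FDR 0.15), and its groups did not overlap. GSTF6, a glutathione transferase linked to camalexin, had 2515, 2766 and 3217 CPM in WRKY33 cells, against 2008, 2205 and 2332 CPM in EV cells (log2 fold change 0.38, SE 0.13, edgeR FDR 0.116). PEN3, a transporter of indole defence compounds, had 12440, 12760 and 12320 CPM in WRKY33 cells, against 9791, 9063 and 9183 CPM in EV cells (log2 fold change 0.42, SE 0.17, edgeR FDR 0.202). In GSTF6, PEN3 and CYP82C2, every WRKY33 library was above every EV library, as in 14% of all genes.

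**Figure D2:**
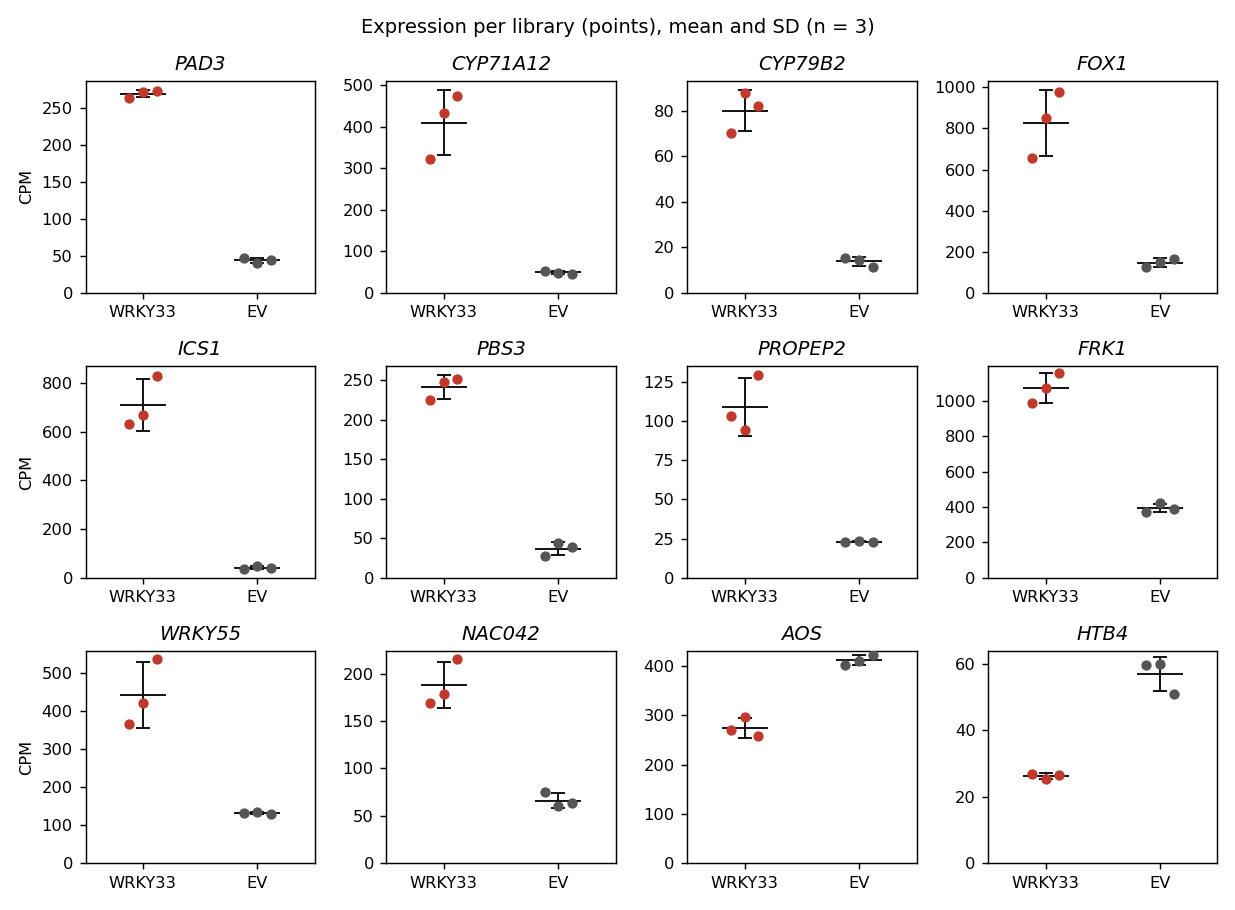
CPM in each library (y axis, each panel with its own scale) of 12 genes in WRKY33 cells (red, left) and EV cells (grey, right), with the mean and SD as black marks (n = 3). PAD3 stands at 263.0 to 273 CPM in WRKY33 cells and 39.8 to 46.7 CPM in EV cells, and only AOS and HTB4 are lower in WRKY33 cells.

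Of salicylic acid (SA) synthesis and response, 3 of 14 genes tested from 17 were induced and 0 repressed (median 0.29), against 5.02% and 1.2% of all genes. DESeq2 also called 3 and 0, and 1 gene was lower at an unadjusted p under 0.05. ICS1, at chr1:28070295-28074177 on the plus strand, had 630.0, 667 and 829 CPM in WRKY33 cells, against 37.9, 46.9 and 41.1 CPM in EV cells. Its log2 fold change was 4.08 (SE 0.16, edgeR FDR 1.27e-09). PBS3, which conjugates isochorismate with glutamate, had 225, 248 and 252 CPM in WRKY33 cells, against 28.1, 44.3 and 38.6 CPM in EV cells, and its log2 fold change was 2.71 (SE 0.25, edgeR FDR 4.86e-06). ALD1, the aminotransferase of pipecolic acid synthesis, had 106 counts in WRKY33 and 0 in EV (edgeR FDR 0.0406). Against a floor of 3 counts ALD1 was 44.6-fold higher (lower 95% counting limit 35.6), and its call was lost when any 1 of the 6 libraries was left out. The other members did not pass the test. EDS5, which exports isochorismate from the chloroplast, had 182, 215 and 224 CPM in WRKY33 cells, against 161, 177 and 176 CPM in EV cells (log2 fold change 0.28, SE 0.12, edgeR FDR 0.273), and NIMIN1, which binds the SA receptor NPR1, had 2.96, 5.52 and 3.96 CPM in WRKY33 cells, against 0.893, 0.603 and 0.392 CPM in EV cells (log2 fold change 2.71, SE 0.95, edgeR FDR 0.128). In both, every WRKY33 library lay above every EV library, which held for 14% of all genes tested. EDS1, a lipase-like protein needed for resistance through TIR receptors, had 128, 124 and 113 CPM in WRKY33 cells, against 143, 151 and 152 CPM in EV cells (log2 fold change -0.28, SE 0.10, edgeR FDR 0.158). There every WRKY33 library lay below every EV library, as in 13.5% of all genes tested. The SA response genes PR1, PR2 and PR5 did not pass the filter on low counts.

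Of pattern-triggered immunity, in which receptors at the cell surface sense microbial or danger molecules, 9 of 19 genes tested were induced and 0 repressed (median 0.39), against 5.02% and 1.2% of all genes, with 10 and 0 by DESeq2 and none lower at an unadjusted p under 0.05. Of the receptors, FLS2, which senses bacterial flagellin, had 2029, 1927 and 2036 CPM in WRKY33 cells, against 1004, 998 and 971 CPM in EV cells (log2 fold change 1.01, SE 0.15, edgeR FDR 0.000462), and EFR, which senses bacterial elongation factor Tu, had 118, 116 and 119 CPM in WRKY33 cells, against 69.4, 67.2 and 73.6 CPM in EV cells (log2 fold change 0.75, SE 0.11, edgeR FDR 0.000488). Of the ligands, PROPEP2 had 103, 94.3 and 129.8 CPM in WRKY33 cells, against 22.9, 23.2 and 22.8 CPM in EV cells (log2 fold change 2.25, SE 0.19, edgeR FDR 2.08e-06), and PROPEP1 had 253, 329 and 436 CPM in WRKY33 cells, against 92.1, 101 and 97.8 CPM in EV cells (log2 fold change 1.81, SE 0.20, edgeR FDR 2.35e-05). The groups stood apart in all 4 genes, as in 944 of the 947 induced genes. Downstream, FRK1 had 987, 1074 and 1156 CPM in WRKY33 cells, against 375, 422 and 389 CPM in EV cells (log2 fold change 1.44, SE 0.16, edgeR FDR 2.44e-05). PUB24, an E3 ligase that dampens immune signalling, had 406, 453 and 451 CPM in WRKY33 cells, against 219, 220.2 and 199 CPM in EV cells (log2 fold change 1.04, SE 0.10, edgeR FDR 6.69e-06). The NADPH oxidases RBOHD and RBOHF, which make extracellular superoxide, had log2 fold changes of 0.39 and 0.55 (edgeR FDR 0.0139 and 0.00278), and the call of RBOHD was lost without WRKY33 replicate 2 or 3 or EV replicate 1 or 2.

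Families of immune receptors and defence proteins, counted by their product names in the reference, held many induced members. Of lectin or cysteine-rich receptor kinases, 32 of 90 were induced and 2 repressed (median 0.54), and of leucine-rich repeat, wall-associated and other receptor kinases 36 of 210 were induced and 3 repressed (median 0.20), against 5.02% and 1.2% of all genes. Receptor-like proteins had 12 of 42 induced and 0 repressed (14 and 0 by DESeq2, 1 lower at an unadjusted p under 0.05), and disease resistance proteins of the TIR and NBS-LRR kinds had 24 of 146 induced and 1 repressed. Of single genes, the kinase AT2G23200 had 189.8, 162 and 183 CPM in WRKY33 cells, against 19.4, 19.7 and 19.2 CPM in EV cells (log2 fold change 3.20, SE 0.16, edgeR FDR 1.17e-08), the wall-associated kinase-like WAKL10 had a log2 fold change of 1.81, RLP20 of 2.74 and the TIR-NBS-LRR protein AT5G17970 of 2.84. Chitinases, which cut fungal cell walls, had 7 of 15 genes induced and 0 repressed (7 and 1 by DESeq2, 1 lower at an unadjusted p under 0.05). Chitinase AT2G43620 had 258, 333 and 336 CPM in WRKY33 cells, against 56.6, 67 and 57.8 CPM in EV cells (log2 fold change 2.36, SE 0.14, edgeR FDR 5.31e-08), and its neighbours AT2G43610 and CHI (AT2G43570) had log2 fold changes of 1.45 and 2.07. Peroxidases had 12 of 49 induced and 0 repressed (14 and 1 by DESeq2, 4 lower at an unadjusted p under 0.05), with Prx37 at 252, 247 and 320.4 CPM in WRKY33 cells, against 76.9, 86.7 and 88.4 CPM in EV cells (log2 fold change 1.70, SE 0.13, edgeR FDR 5.17e-07). Beta glucosidases had 9 of 22 induced and 1 repressed, with the adjacent BGLU31 and BGLU32 at log2 fold changes of 2.93 and 2.87. Berberine bridge-like oxidases had 7 of 17 induced and 0 repressed by edgeR and by DESeq2 (median 0.71), with none lower at an unadjusted p under 0.05.

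Of the known partners of WRKY33 and the MAP kinase cascade, 4 of 19 genes were induced and 0 repressed (median 0.16), against 5.02% and 1.2% of all genes. DESeq2 called 5 and 0, and 1 gene was lower at an unadjusted p under 0.05. MPK11, a MAP kinase close to MPK4, had 516, 549.5 and 686 CPM in WRKY33 cells, against 222, 245 and 248 CPM in EV cells (log2 fold change 1.3, SE 0.12, edgeR FDR 2.88e-06), and MKK1, a MAP kinase kinase, had 35.7, 36 and 29.9 CPM in WRKY33 cells, against 15.2, 16.8 and 20.4 CPM in EV cells (log2 fold change 0.96, SE 0.18, edgeR FDR 0.00372). SIB1, a VQ protein that binds WRKY33 and activates it, had 14.2, 12.8 and 17.6 CPM in WRKY33 cells, against 2.81, 4.17 and 4.7 CPM in EV cells (log2 fold change 1.93, SE 0.25, edgeR FDR 0.000124). AP2C1, a phosphatase that inactivates MAP kinases, had a log2 fold change of 0.45 (edgeR FDR 0.0159), and its call was lost in 5 of the 6 omissions of 1 library, with WRKY33 replicate 1 the exception. MPK3 and the VQ proteins MKS1 and SIB2, which also bind WRKY33 or the kinases that act on it, did not pass the test. MPK3 had 1080, 1054 and 1101 CPM in WRKY33 cells, against 1068, 1105 and 1082 CPM in EV cells (log2 fold change -0.01, SE 0.09, edgeR FDR 0.99), and MKS1 had 316, 377 and 382 CPM in WRKY33 cells, against 345, 361 and 369.9 CPM in EV cells (log2 fold change 0.00, SE 0.11, edgeR FDR 0.998). SIB2 had 4.65, 9.1 and 13.1 CPM in WRKY33 cells, against 4.12, 4.92 and 8.88 CPM in EV cells (log2 fold change 0.59, SE 0.49, edgeR FDR 0.677). The groups of all 3 overlapped.

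The WRKY family had 16 induced and 2 repressed members of 61 tested (median 0.47), against 5.02% and 1.2% of all genes, WRKY33 itself not counted. WRKY55 had 367, 422 and 536 CPM in WRKY33 cells, against 132, 134 and 128 CPM in EV cells (log2 fold change 1.75, SE 0.17, edgeR FDR 6.17e-06). WRKY47 had 216, 198 and 239.9 CPM in WRKY33 cells, against 101, 90.9 and 90.3 CPM in EV cells (log2 fold change 1.21, SE 0.12, edgeR FDR 7.1e-06). WRKY50 had 51, 57 and 61.3 CPM in WRKY33 cells, against 14.6, 17 and 17 CPM in EV cells (log2 fold change 1.80, SE 0.19, edgeR FDR 1.97e-05), and ABO3 (WRKY63) had 26.5, 36.3 and 48 CPM in WRKY33 cells, against 4.39, 6.12 and 5.88 CPM in EV cells (log2 fold change 2.76, SE 0.30, edgeR FDR 2.26e-05). No WRKY33 library of these 4 genes overlapped with EV, as in 944 of the 947 induced genes. WRKY67, WRKY72, WRKY75 and WRKY71 had log2 fold changes of 2.03, 1.34, 1.03 and 0.97, and the stress-induced WRKY40 and WRKY53 of 0.69 and 0.58 (edgeR FDR 0.000152 and 0.0184). The largest value belonged to the low-expressed WRKY58, with 5.53, 7.16 and 12.1 CPM in WRKY33 cells, against 0.412, 0.139 and 0.588 CPM in EV cells (log2 fold change 4.45, SE 0.89, edgeR FDR 0.00484), and its call was lost without WRKY33 replicate 3. The 2 repressed members were WRKY4 and WRKY2. WRKY4 had 40.5, 35 and 37.6 CPM in WRKY33 cells, against 63.4, 53.4 and 55.4 CPM in EV cells (log2 fold change -0.60, SE 0.12, edgeR FDR 0.00509), and WRKY2 had 11.1, 15.1 and 9.46 CPM in WRKY33 cells, against 25.2, 19.7 and 17.8 CPM in EV cells (log2 fold change -0.81, SE 0.22, edgeR FDR 0.043). The call of WRKY2 was lost in 5 of the 6 omissions of 1 library, with WRKY33 replicate 2 the exception, and that of WRKY53 without WRKY33 replicate 1 or 3 or EV replicate 2 or 3.

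Ethylene, jasmonate and ABA genes were examined in the same way. Of ethylene genes, 4 of 13 tested were induced and 0 repressed (median 0.28), against 5.02% and 1.2% of all genes. DESeq2 called 6 and 0, and none was lower at an unadjusted p under 0.05. The ACC synthases ACS6 and ACS7, which make the ethylene precursor, had log2 fold changes of 0.50 and 0.69 (edgeR FDR 0.0165 and 0.000911), the ACC oxidase ACO4 had 442, 429 and 444 CPM in WRKY33 cells, against 217, 228 and 223 CPM in EV cells (log2 fold change 0.98, SE 0.16, edgeR FDR 0.000988), and the response factor ERF1 had a log2 fold change of 0.50 (edgeR FDR 0.028). The calls of ACS6 and ERF1 were lost in 5 of the 6 omissions, WRKY33 replicate 1 being the exception. ACS2, a known WRKY33 target, had 1365, 1372 and 1585 CPM in WRKY33 cells, against 1182, 1288 and 1365 CPM in EV cells (log2 fold change 0.18, SE 0.09, edgeR FDR 0.408), with overlapping groups. Of jasmonate genes, 3 of 18 were induced and 1 repressed (median 0.17), against 5.02% and 1.2% of all genes. The lipoxygenases LOX3 and LOX4, at the entry of the pathway, had log2 fold changes of 0.68 and 0.80, while allene oxide synthase AOS, the following step, fell and had 271, 297 and 257 CPM in WRKY33 cells, against 402, 412 and 422 CPM in EV cells (log2 fold change -0.58, SE 0.11, edgeR FDR 0.00305). JAZ7, a repressor of the response, had 10.6, 13.9 and 13.8 CPM in WRKY33 cells, against 7.28, 5.06 and 4.96 CPM in EV cells (log2 fold change 1.15, SE 0.21, edgeR FDR 0.00278).

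Of ABA genes, 6 of 21 were induced and 0 repressed (median 0.51), against 5.02% and 1.2% of all genes, with 7 and 0 by DESeq2 and none lower at an unadjusted p under 0.05. Against the 5 other TFs of the batch the median of the same genes was -0.41, with 3 called higher and 7 lower, against 10.9% and 6.96% of all genes. The ABA hydroxylases CYP707A3 and CYP707A1, which break ABA down, were both induced. CYP707A3 had 301, 297 and 299.5 CPM in WRKY33 cells, against 137, 139 and 116 CPM in EV cells (log2 fold change 1.2, SE 0.12, edgeR FDR 7.63e-06), and CYP707A1 had 119, 115 and 118 CPM in WRKY33 cells, against 86.5, 71.4 and 72.7 CPM in EV cells (log2 fold change 0.62, SE 0.15, edgeR FDR 0.0188). The ABA aldehyde oxidase AAO3 of the synthesis branch had a log2 fold change of 0.47 (edgeR FDR 0.0363). The call of AAO3 was lost without any 1 of the 6 libraries, and that of CYP707A1 without WRKY33 replicate 2 or 3 or EV replicate 2 or 3. The synthesis genes NCED3 and NCED5, which WRKY33 is known to bind, did not pass. NCED3 had 128, 130.4 and 81 CPM in WRKY33 cells, against 75.9, 61.3 and 59.4 CPM in EV cells (log2 fold change 0.79, SE 0.25, edgeR FDR 0.0873), and NCED5 was too low to be tested, with 0.24, 2.01 and 0.403 CPM in WRKY33 cells, against 0.343, 0 and 0 CPM in EV cells. The stress-response genes KIN1 and RD29A were induced. KIN1 had 13.9, 13.3 and 14.4 CPM in WRKY33 cells, against 2.27, 3.76 and 3.92 CPM in EV cells (log2 fold change 2.06, SE 0.33, edgeR FDR 0.000892), and RD29A had 43.9, 50.9 and 50 CPM in WRKY33 cells, against 36.2, 25.5 and 20.3 CPM in EV cells (log2 fold change 0.83, SE 0.18, edgeR FDR 0.00972). The call of RD29A was lost without EV replicate 2 or 3, and its log2 fold change was -0.28 in a single model over all libraries of the series.

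**Figure D3:**
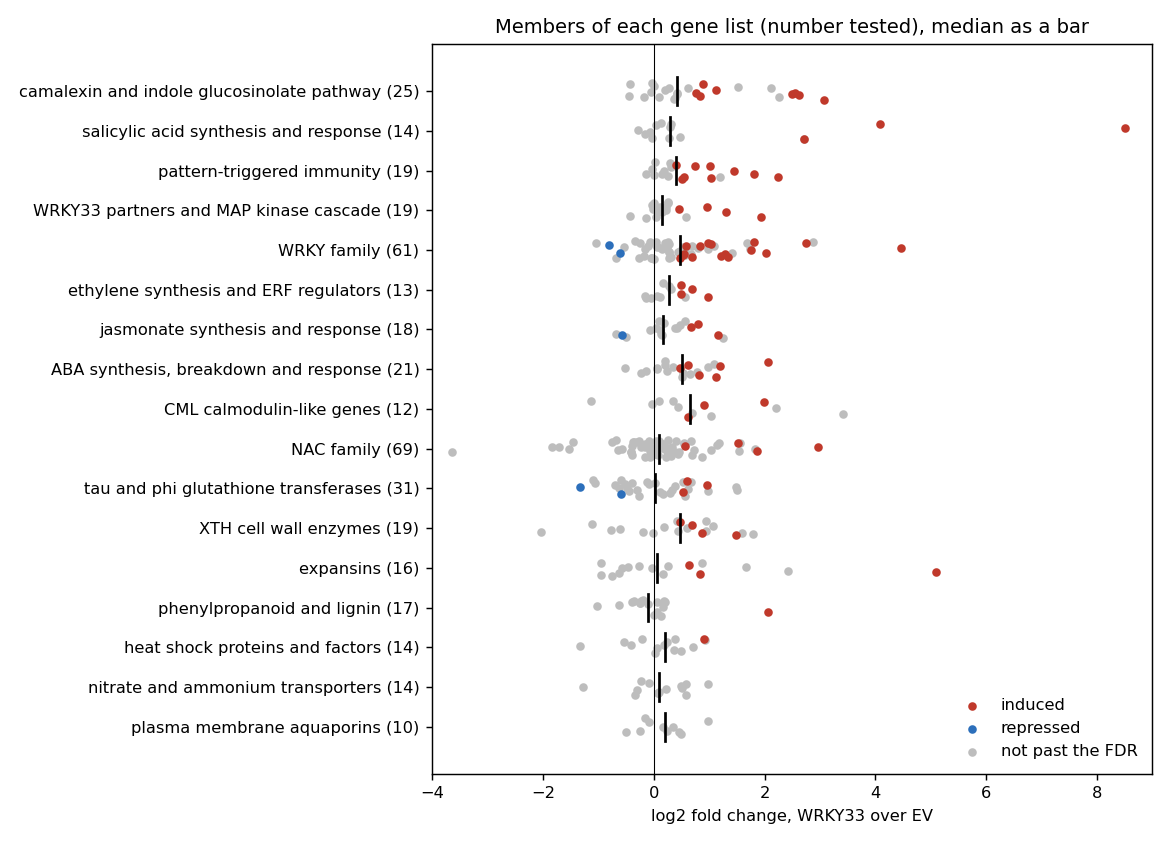
Log2 fold change of WRKY33 over EV (x axis) of every tested member of 17 gene lists (rows, number tested in parentheses), with induced members in red, repressed in blue, others in grey and the list median as a black bar. Pattern-triggered immunity holds 9 red points of 19 and the camalexin list 8 of 25, against 5.02% of all genes induced. Their medians lie at 0.39 and 0.43.

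Among other TFs, the NAC family had 4 of 69 induced (5.8%, close to the 5.02% of all genes) and 0 repressed (median 0.10), with 8 and 1 by DESeq2 and 6 lower at an unadjusted p under 0.05. NAC036 had 363, 361 and 406 CPM in WRKY33 cells, against 114, 95.5 and 102 CPM in EV cells (log2 fold change 1.86, SE 0.13, edgeR FDR 3.07e-07). NAC042, a regulator of camalexin synthesis, had 169.6, 179 and 216 CPM in WRKY33 cells, against 74.6, 60.5 and 63 CPM in EV cells (log2 fold change 1.51, SE 0.20, edgeR FDR 0.000121), and NAC061 and ATAF1 had log2 fold changes of 2.96 and 0.56. The call of ATAF1 was lost without WRKY33 replicate 2 or 3 or EV replicate 1 or 2. Of ZAT zinc fingers, 1 of 9 was induced, against 5.02% of all genes, the C2H2 zinc finger gene ZF1, with 479.6, 483 and 523 CPM in WRKY33 cells, against 185, 165 and 154 CPM in EV cells (log2 fold change 1.57, SE 0.14, edgeR FDR 3.4e-06). HB-2 had 219, 217 and 238 CPM in WRKY33 cells, against 37, 42 and 41.9 CPM in EV cells (log2 fold change 2.48, SE 0.12, edgeR FDR 9.82e-09), and MYB87 had 629, 667 and 707 CPM in WRKY33 cells, against 159.6, 169 and 165 CPM in EV cells (log2 fold change 2.02, SE 0.13, edgeR FDR 8.63e-08). Both stood apart from EV with little spread, and 944 of the 947 induced genes stood apart from EV. Of calmodulin-like genes 3 of 12 were induced, against the same 5.02%, with CML11 at 98.2, 91.3 and 107 CPM in WRKY33 cells, against 26.9, 23.2 and 24.7 CPM in EV cells (log2 fold change 1.99, SE 0.16, edgeR FDR 1.39e-06) and CML38 and CAM9 at log2 fold changes of 0.91 and 0.62. Of XTH wall enzymes 4 of 19 were induced, against 5.02% of all genes, with XTH24 at 339, 336 and 369 CPM in WRKY33 cells, against 130.2, 136 and 108 CPM in EV cells (log2 fold change 1.48, SE 0.12, edgeR FDR 1.64e-06) and XTH18, XTH28 and TCH4 at log2 fold changes of 0.88, 0.70 and 0.47. The call of TCH4 was lost without any 1 of the 6 libraries and that of XTH28 without EV replicate 1 or 3. Of expansins 3 of 16 were induced, against the same share of all genes, PNP-A, EXLA1 (log2 fold change 0.84) and EXLA3 (log2 fold change 0.64).

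Detoxification, phenylpropanoid, heat shock and transporter genes were examined next, with 5.02% induced and 1.2% repressed over all genes as the background. Of tau and phi glutathione transferases, 3 of 31 were induced and 2 repressed (median 0.02), with GSTU11, GSTU12 and GSTF7 at log2 fold changes of 0.96, 0.59 and 0.52, and the call of GSTF7 was lost in 5 of the 6 omissions of 1 library, with WRKY33 replicate 1 the exception. Of UGT73 and UGT74 glycosyltransferases 1 of 14 was induced, UGT73B3 (log2 fold change 0.69), and by product name 1 UDP-glycosyltransferase of 94 was induced and 5 were repressed. Of phenylpropanoid and lignin genes 1 of 17 was induced, F6H1 of coumarin synthesis, with 231, 281 and 311 CPM in WRKY33 cells, against 61.5, 76.6 and 60.3 CPM in EV cells (log2 fold change 2.06, SE 0.29, edgeR FDR 0.000302). Of heat shock genes 1 of 14 was induced, the repressor HSFB1 (log2 fold change 0.91, edgeR FDR 0.000699). Nitrate and ammonium transporters had 0 of 14 and plasma membrane aquaporins 0 of 10 genes past the test in edgeR and in DESeq2, with 1 transporter and no aquaporin at an unadjusted p under 0.05. Of 11 genes with the EXS domain of the phosphate exporter PHO1, 6 were induced (median 1.43), among them AT2G03250 with 73.2, 73.5 and 83.6 CPM in WRKY33 cells, against 5.22, 5.61 and 7.51 CPM in EV cells (log2 fold change 3.65, SE 0.20, edgeR FDR 2.45e-08).

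The repressed genes held other kinds of proteins. The most repressed gene with a mean of at least 3 log2 CPM was AT1G69570, a Dof zinc finger TF, with 4.49, 2.98 and 2.08 CPM in WRKY33 cells, against 8.65, 12.7 and 10.9 CPM in EV cells (log2 fold change -1.76, SE 0.41, edgeR FDR 0.0149). AT1G72810, a pyridoxal phosphate enzyme, had 4.25, 8.06 and 9.86 CPM in WRKY33 cells, against 22.6, 26.7 and 18.6 CPM in EV cells (log2 fold change -1.61, SE 0.29, edgeR FDR 0.00242), and AT1G72800, an RNA-binding protein, had 22.8, 18.8 and 19.4 CPM in WRKY33 cells, against 43.1, 45.6 and 48.3 CPM in EV cells (log2 fold change -1.16, SE 0.17, edgeR FDR 0.000364). AT1G72810 and AT1G72800 overlap on opposite strands and cannot be told apart without strand. AT1G56480, with no product name, had 3.45, 2.39 and 4.03 CPM in WRKY33 cells, against 10.4, 10.2 and 8.75 CPM in EV cells (log2 fold change -1.57, SE 0.42, edgeR FDR 0.0327). The wall-associated kinase AT4G31110 had 11.1, 5.59 and 6.17 CPM in WRKY33 cells, against 22, 19.4 and 20.5 CPM in EV cells (log2 fold change -1.43, SE 0.26, edgeR FDR 0.0024), and the glutathione transferase GSTU6 had 6.81, 3.58 and 2.75 CPM in WRKY33 cells, against 9.75, 11.9 and 11.2 CPM in EV cells (log2 fold change -1.33, SE 0.32, edgeR FDR 0.017). These 6 genes were taken among those with no overlap with EV, so their separation from EV was set by that rule. The call of AT1G56480 was lost without any 1 of the 6 libraries. Those of AT1G69570 and GSTU6 were lost without WRKY33 replicate 2 or 3 or EV replicate 2 or 3.

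Cell wall and hormone genes were among the others. UGD3, which makes UDP-glucuronic acid for wall polysaccharides, had 8.18, 8.28 and 9.06 CPM in WRKY33 cells, against 25.5, 19.3 and 17.9 CPM in EV cells (log2 fold change -1.29, SE 0.21, edgeR FDR 0.000878), and the sugar transferase AT1G70630 had 6.81, 12.2 and 9.53 CPM in WRKY33 cells, against 25, 22.5 and 24 CPM in EV cells (log2 fold change -1.32, SE 0.28, edgeR FDR 0.00734). UGT76C2, which inactivates cytokinins, had 17.1, 9.25 and 16 CPM in WRKY33 cells, against 35.1, 30.4 and 30.8 CPM in EV cells (log2 fold change -1.18, SE 0.25, edgeR FDR 0.00723). These genes too were taken among those with no overlap with EV. The cupredoxin AT2G15780 and the PHD finger protein AT5G58610 had log2 fold changes of -1.27 and -1.17 (edgeR FDR 0.0352 and 0.00469). The call of AT2G15780 was lost without any 1 of the 6 libraries, and its log2 fold change against the 5 other TFs was 0.46. By product name, 40 auxin-responsive genes (SAUR or Aux/IAA) were tested. Of them 4 were induced and 2 repressed (median -0.06), against 5.02% and 1.2% of all genes, so they did not fall as a group. The auxin genes IAA19, LBD16 and PIN3 were chosen after their values were seen. IAA19, an auxin-induced repressor, had 51.8, 43.8 and 33.2 CPM in WRKY33 cells, against 81.7, 81.8 and 80.4 CPM in EV cells (log2 fold change -0.92, SE 0.15, edgeR FDR 0.00113). LBD16, a TF of lateral root initiation, had 21.6, 17.2 and 13.6 CPM in WRKY33 cells, against 38.9, 35.9 and 34 CPM in EV cells (log2 fold change -1.05, SE 0.23, edgeR FDR 0.00814), and the auxin efflux carrier PIN3 had 21.8, 16.1 and 9.73 CPM in WRKY33 cells, against 36.9, 29.3 and 29.8 CPM in EV cells (log2 fold change -1.01, SE 0.23, edgeR FDR 0.0136). The call of LBD16 was lost without WRKY33 replicate 3 and that of PIN3 without WRKY33 replicate 2 or EV replicate 1.

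Histone genes, whose transcripts follow DNA replication, and ribosomal protein genes were repressed or not called. Of 41 histone genes, 0 were induced and 10 repressed in edgeR and in DESeq2 (median -0.57, against 1.2% repressed of all genes), and none was higher at an unadjusted p under 0.05. Of 312 ribosomal protein genes, 0 were induced and 12 repressed (median -0.33), with 0 and 17 by DESeq2 and 1 higher at an unadjusted p under 0.05. HTB4 had 26.9, 25.1 and 26.4 CPM in WRKY33 cells, against 59.5, 59.9 and 50.9 CPM in EV cells (log2 fold change -1.12, SE 0.15, edgeR FDR 0.00013), below all 18 other libraries of batch 2. The H2B gene HTB2 had 11.8, 4.92 and 4.83 CPM in WRKY33 cells, against 17, 14.5 and 18.7 CPM in EV cells (log2 fold change -1.22, SE 0.29, edgeR FDR 0.0169), and the H2A variant gene H2AXA had 59.3, 55.4 and 58.8 CPM in WRKY33 cells, against 93.7, 108 and 107 CPM in EV cells (log2 fold change -0.83, SE 0.14, edgeR FDR 0.00141). WRKY33 and EV stood apart in each, as in all 226 repressed genes, but the call of HTB2 was lost without WRKY33 replicate 2 or 3 or EV replicate 1 or 3. For HTB4, HTB2 and H2AXA alike, EV had the highest mean of the groups of batch 2. Against the 5 other TFs the log2 fold change was -0.39 for HTB4 (edgeR FDR 0.0209). It was -0.46 for HTB2 and -0.18 for H2AXA, which did not pass that test (edgeR FDR 0.265 and 0.27). The ribosomal protein L4 gene AT5G02870 had 34.5, 26.6 and 35.8 CPM in WRKY33 cells, against 58.9, 55.2 and 54.6 CPM in EV cells (log2 fold change -0.80, SE 0.14, edgeR FDR 0.00179). The summed stele markers given above were also lower in WRKY33 cells, and their part in the repressed genes was not tested.

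The comparison with EV was then set beside one with the 5 other TFs of the batch, which asks whether a gene stands higher in WRKY33 cells than in the mean of cells with other TFs. Of 19565 genes tested, 2138 were higher in WRKY33 (10.9%) and 1361 lower (6.96%). Both comparisons use the same 3 WRKY33 libraries, so they are not independent, and the counts are descriptive. Of the 947 genes induced over EV, 762 (80.5%) were also called higher than the 5 TFs and 45 were called lower. Of the 226 repressed genes, 99 (43.8%) were also called lower and 8 higher. The log2 fold change against the 5 TFs was 3.67 for PAD3, 2.67 for FRK1 and 3.11 for ICS1. ACS2, which did not pass the test against EV, was 1.00 on the log2 scale against the 5 TFs (edgeR FDR 2.93e-11). The mean of ACS2 was 1441 CPM in WRKY33 cells and 1279 CPM in EV cells. It was 735 CPM in DIV2, 935 in GBF2, 1332 in HSFA6A, 624 in MYB3 and 345 in MYBR1 cells. EV also had a higher mean than each of the 5 TFs for PAD3, and a lower mean than each for ICS1. For FRK1 only HSFA6A had a higher mean than EV among the 5 TFs. Of the gene lists, 32 of 61 WRKY family, 15 of 25 camalexin and 14 of 19 pattern-triggered immunity genes were called higher than the 5 TFs. In these lists 6, 0 and 1 genes were called lower, against 10.9% higher and 6.96% lower of all genes. The NAC family had 7 of 69 higher, close to the share of all genes, and 21 lower (median -0.29). The XTH enzymes had 3 of 19 higher and 6 lower (median -0.24). Of the 7 endodermis markers 4 were called higher than the 5 TFs and 0 lower (median 1.38). None of the other root cell markers was called. The part of cell types in this comparison was not tested.

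Another set of genes was induced over EV and stood level with or below the other TFs. SIB1 was -0.01 on the log2 scale against the 5 TFs (edgeR FDR 0.989). SIB1 ran from 18.8 to 25.2 CPM in MYB3 cells and from 11 to 22.9 CPM in DIV2 cells. KIN1 was -0.63 on the log2 scale against the 5 TFs (edgeR FDR 0.0145), with 20.9 to 24.5 CPM in DIV2 cells and 11.4 to 16.9 CPM in HSFA6A cells. RD29A and JAZ7 were -1.26 and -1.39, and EXLA1, TCH4 and ATAF1 were -0.52, -0.71 and -0.40 on the log2 scale. In each of these 7 genes the EV libraries had the lowest mean of the 7 groups of the batch, and in 5 of them (KIN1, RD29A, JAZ7, EXLA1 and TCH4) WRKY33 had the next lowest. TPS04, the geranyllinalool synthase of volatile terpenes, was far above EV, with 10.3, 25.7 and 25.9 CPM in WRKY33 cells, against 1.03, 2.04 and 3.13 CPM in EV cells (log2 fold change 3.32, SE 0.55, edgeR FDR 0.00114), and 0.34 on the log2 scale against the 5 TFs (edgeR FDR 0.57). PBS3 stood above all other libraries, and it was 0.71 on the log2 scale against the 5 TFs (edgeR FDR 2.23e-05). Of the repressed genes, IAA19, UGT76C2 and LBD16 were at 0.04, -0.05 and -0.06 against the 5 TFs and did not pass that test, while GSTU6 was -1.88 on the log2 scale against the 5 TFs (edgeR FDR 4.57e-07).

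**Figure D4:**
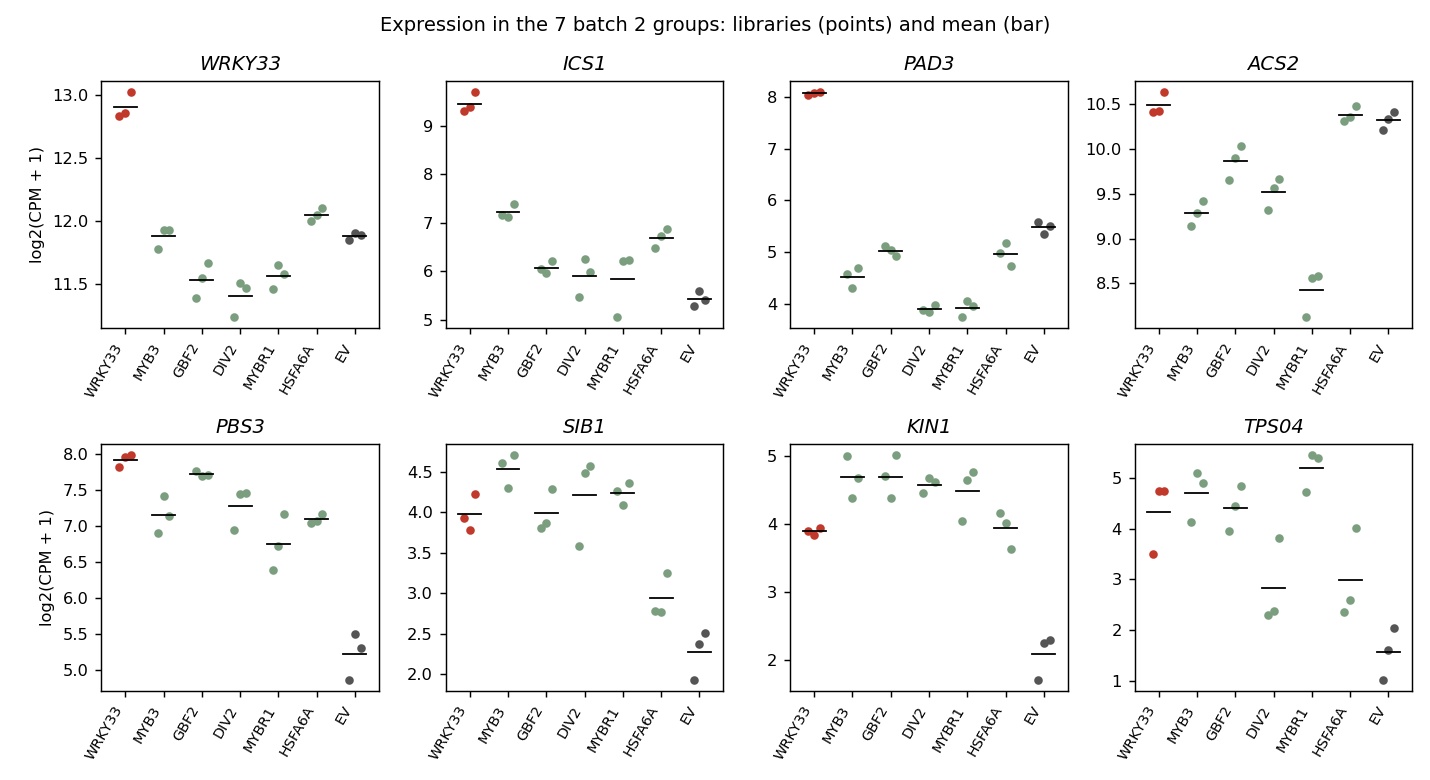
Expression as log2(CPM + 1) (y axis) of 8 genes in the 7 groups of batch 2 (x axis), with libraries as points, the group mean as a bar, WRKY33 in red, EV in dark grey and the other TFs in green. ICS1 and PAD3 are highest in WRKY33, whereas SIB1, KIN1 and TPS04 are lowest in EV and higher with some other TFs than with WRKY33.

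W-boxes were counted in the 500 bases upstream of each gene, and the counts are descriptions with no test. A W-box (TTGACC or TTGACT, both strands) stood in 64.2% of the 947 induced genes, in 52.2% of the 226 repressed genes and in 46.3% of all genes tested (45.0% of all 32794 windows). At least 2 W-boxes stood in 33.1% of induced, 19.5% of repressed and 15.8% of all genes tested. The share was 66.1% in the 762 induced genes that were also higher than the 5 TFs and 56.2% in the other 185. The related words TTGACA and TTGACG stood in 51.0% of induced, 43.8% of repressed and 41.7% of all genes, and the G-box CACGTG, a word of bZIP and bHLH factors, in 8.24%, 9.73% and 10.2%. The GC content was 30.4% in induced, 31.0% in repressed and 32.2% in all genes, and its part in these shares was not tested. W-boxes were most frequent 100 to 50 bases upstream, in 15.9% of induced, 10.6% of repressed and 8.64% of all genes.

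Counts within the gene groups are small, and differences between groups were not tested. Against 64.2% of all induced genes, of the induced camalexin genes 6 of 8 held a W-box, of the ABA genes 6 of 6, of pattern-triggered immunity 6 of 9 and of the WRKY family 9 of 16. None of the 3 induced SA genes, ICS1, PBS3 and ALD1, held one in this window, nor did CYP71A12 and CYP79B2. FOX1 held 3, at 299, 70 and 30 bases upstream, and all are in its printed sequence. A missing word says only that these letters are not in these 500 bases.

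**Figure D5:**
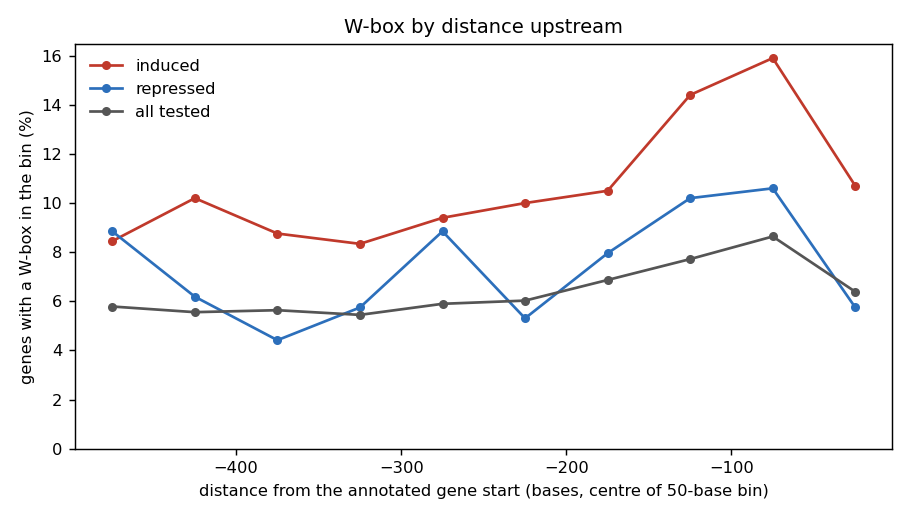
Percent of genes with a W-box (y axis) in 50-base bins by distance from the annotated gene start (x axis, upstream negative), for induced genes (red), repressed genes (blue) and all genes tested (dark grey). The red line peaks at 15.9% in the bin 100 to 50 bases upstream, where the dark grey line is at 8.64%.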

How the data were processed

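RNA-seq counts of 56 libraries were used, of which 21 belong to batch 2. The authors aligned reads with HISAT2 2.0.5 to TAIR10, used the GenomicFeatures and GenomicAlignments packages to count reads in genes, and deposited the untransformed counts of 33016 genes per library, tested by them with DESeq2 1.22.1. The strand setting, the treatment of multi-mapping reads and the annotation release are not given in the sources used here, so genes that overlap on opposite strands (among them WRKY33, FRK1, FLS2, MKK1, GSTU6, F6H1, NAC042, ATAF1, CYP71A13, CYP71B6, AAO3, MPK3, WRKY40, WRKY53, WRKY4 and WRKY2) are uncertain. No gene was removed for its response to cycloheximide.

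Counts were tested with edgeR 4.0.16 (R 4.3.3, TMM, filterByExpr with a minimum count of 10, quasi-likelihood test, Benjamini-Hochberg FDR under 0.05) in a model with batch and WRKY33 on 3 WRKY33 and 9 EV libraries. The 3 EV libraries of batch 2 set the difference, and the 6 others inform the spread. A second fit compared WRKY33 with the mean of the 5 other TFs in the 21 libraries. DESeq2 1.42.0, another normalization, no filter, other controls, a replicate block and omission of each library were alternatives, and the scripts were tested on simulated data. No 2 libraries of a group agreed within sampling noise. The 6 compared libraries held 12553482 to 19914633 counts. Intervals and floors cover counting error only and leave out the spread between wells.

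Genes were named by a rule: WRKY33, the 12 most induced and the 12 most repressed called genes with a mean of at least 3 log2 CPM and no overlap with EV, up to 4 members per list with the lowest FDR, and known targets and partners. Members of this rule that were not called are given by their counts only, except those of the camalexin, SA, MAP kinase, ethylene and ABA lists. Genes named beyond it, such as HB-2, MYB87, TPS04, HTB4, IAA19, EDS1, FLS2 and the chitinases, were chosen after their values were seen, and product families come from product names in RefSeq. The lists and comparisons were chosen with earlier results of these data known. Upstream sequences of 500 bases were read from the RefSeq TAIR10.1 genome for 32794 genes. In the deposited tables a letter in the names was the same for WRKY33, GBF2 and MYB3 and another for EV, DIV2, HSFA6A and MYBR1, and its meaning is not stated.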

Additional observations from a re-analysis of the deposited data

How the results depend on the processing

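The 947 induced and 226 repressed genes became 1288 and 308 with DESeq2, 1040 and 181 with DESeq2's size factors in edgeR, 1029 and 249 without the filter on low counts, and 940 and 164 in a single model over all libraries. With the EV libraries of batch 2 only, 1515 genes were induced and 454 repressed. Asking also for an absolute log2 fold change of at least 1 in the original fit left 450 and 54 genes. Leaving out each WRKY33 or EV library of batch 2 in turn gave 622 to 910 induced and 83 to 218 repressed genes. With the other 5 TFs as control, 2138 genes were higher in WRKY33 and 1361 lower, with DIV2 alone 2526 and 2056, with GBF2 2447 and 1528, with HSFA6A 651 and 326, with MYB3 1331 and 1036, and with MYBR1 1904 and 1249. The cause of these differences was not tested. The replicate block within batch 2 gave 1738 induced and 644 repressed genes. The correlations of same-numbered wells were 0.224, -0.007 and 0.149 over 9295 genes, and those of differently numbered wells ran from -0.199 to 0.087. WRKY33 replicate 2 was near 0 with every EV well, at most 0.032. These values do not decide whether the numbers pair the wells, and the main fit has no replicate block. The share of promoters with at least 2 W-boxes was 33.1% in induced and 19.5% in repressed genes, and 43.1% of the genes lower than the 5 TFs held a W-box. Of the 115 called genes named, 22 lost their call in at least 1 omission of a library, with their direction kept. Without WRKY33 replicate 2, the calls of AT1G69570, AT1G56480, GSTU6, AT2G15780, HTB2, CYP707A1, ACS6, ERF1, ALD1, AP2C1, GSTF7, TCH4, ATAF1, PIN3, RBOHD and AAO3 were lost (FDR 0.0523 to 0.232). Without WRKY33 replicate 3, the calls of AT1G69570, AT1G56480, GSTU6, AT2G15780, HTB2, CYP707A1, ACS6, ERF1, ALD1, AP2C1, GSTF7, TCH4, ATAF1, LBD16, WRKY58, WRKY53, WRKY2, RBOHD and AAO3 were lost (FDR 0.0585 to 0.188). Without EV replicate 2, the calls of AT1G69570, AT1G56480, GSTU6, AT2G15780, RD29A, CYP707A1, ACS6, ERF1, ALD1, AP2C1, GSTF7, TCH4, ATAF1, WRKY53, WRKY2, RBOHD and AAO3 were lost (FDR 0.0633 to 0.154). Without EV replicate 3, the calls of AT1G69570, AT1G56480, GSTU6, AT2G15780, HTB2, RD29A, CYP707A1, ACS6, ERF1, ALD1, AP2C1, GSTF7, XTH28, TCH4, WRKY53, WRKY2 and AAO3 were lost (FDR 0.0512 to 0.129). Without WRKY33 replicate 1, the calls of AT1G56480, AT2G15780, ALD1, TCH4, WRKY53, WRKY2 and AAO3 were lost (FDR 0.0608 to 0.129). Without EV replicate 1, the calls of AT1G56480, AT2G15780, HTB2, ACS6, ERF1, ALD1, AP2C1, GSTF7, XTH28, TCH4, ATAF1, PIN3, WRKY2, RBOHD and AAO3 were lost (FDR 0.0604 to 0.233). Among values called with EV or with the alternative, directions turned only against other TFs or in the single model, in 93 values of 30 genes. In the single model over all libraries the log2 fold change was -0.28 for RD29A, -0.06 for JAZ7 and -0.08 for TCH4. Against the 5 TFs it was 0.46 for AT2G15780, -0.63 for KIN1, -1.26 for RD29A, -1.39 for JAZ7, -0.01 for SIB1, -0.10 for UGT73B3, -0.52 for EXLA1, -0.71 for TCH4, -0.03 for CML38, -0.40 for ATAF1, 0.04 for IAA19, 0.09 for WRKY2 and 0.33 for EDS1. Against DIV2 it was 1.5 for AT2G15780, 0.06 for HTB2, -0.37 for CYP707A3, -0.72 for KIN1, -1.64 for RD29A, -0.29 for ERF1, -2.90 for JAZ7, 0.18 for AOS, -0.31 for SIB1, -0.72 for UGT73B3, -0.47 for EXLA1, -0.71 for TCH4, -0.06 for CML38, -0.95 for NAC061, -0.81 for ATAF1, -1.06 for NCED3, -1.26 for SIB2, 0.41 for MPK3, 0.14 for H2AXA, 0.50 for IAA19, 0.96 for WRKY2 and 1.2 for EDS1. Against GBF2 it was 0.23 for AT1G56480, 0.82 for UGT76C2, -0.87 for KIN1, -1.56 for RD29A, -1.69 for JAZ7, -0.01 for SIB1, -0.30 for UGT73B3, -0.81 for EXLA1, -0.26 for XTH18, -1.11 for TCH4, -0.06 for CML38, -0.79 for ATAF1, -0.71 for NCED3, -0.02 for TPS04, 0.20 for WRKY2 and 0.61 for EDS1. Against HSFA6A it was 0.08 for AT2G15780, -0.06 for KIN1, -0.48 for RD29A, -0.08 for JAZ7, -0.22 for AP2C1, -0.12 for EXLA1, -0.42 for TCH4 and -0.04 for CML38. Against MYB3 it was 0.31 for AT1G72810, 0.80 for AT1G56480, 0.05 for AT2G15780, 0.44 for UGT76C2, -0.86 for KIN1, -1.17 for RD29A, -1.13 for JAZ7, -0.59 for SIB1, -0.38 for AP2C1, -0.39 for EXLA1, -0.22 for XTH18, -0.66 for TCH4, -0.41 for CML38, -0.27 for ATAF1, -0.34 for TPS04 and 0.28 for IAA19. Against MYBR1 it was 0.81 for AT2G15780, 0.14 for UGT76C2, -0.66 for KIN1, -1.47 for RD29A, -1.14 for JAZ7, -0.27 for SIB1, -0.79 for EXLA1, -0.56 for XTH24, -0.64 for TCH4, -0.17 for ATAF1, -0.82 for TPS04, 0.13 for IAA19, 0.86 for LBD16, 0.33 for WRKY2 and 0.61 for EDS1. The number of wells and the low counts of genes under 1 CPM limit what could be called.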

Other observations

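Further product families are described here by their counts, beside 5.02% induced and 1.2% repressed of all genes tested. Of cytochrome P450 genes, which oxidize hormones and defence compounds, 18 of 131 were induced and 1 repressed by edgeR (median log2 fold change 0.37). Of MYB factors 13 of 108 were induced and 1 repressed, of ERF or AP2 factors 9 of 79 and 4, and of bHLH factors 5 of 76 and 2. Of MATE transporters, which export small molecules, 6 of 38 were induced and 1 repressed, and of ABC transporters 6 of 50 and 2. Ankyrin repeat proteins had 12 of 68 genes induced and 0 repressed (14 and 0 by DESeq2, 3 lower at an unadjusted p under 0.05), and proteins with cysteine- and histidine-rich C1 domains had 8 of 79 induced and 0 repressed (10 and 0 by DESeq2, 1 lower at an unadjusted p under 0.05). U-box or RING ubiquitin ligases had 18 of 420 induced and 6 repressed (median -0.02).

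Some genes had few or no counts in 1 group. Every WRKY33 library had counts in fewer genes (18991 to 20077) than every EV library (20753 to 22426). The part of this in genes with no counts in WRKY33 was not tested. HR3, a homolog of the RPW8 mildew resistance genes, had 299 counts over the WRKY33 libraries and 1 over the EV libraries, a ratio of 377 with a 95% counting interval of 67.2 to 14900. GXM2, a glucuronoxylan methyltransferase of secondary walls, had 0 counts over the WRKY33 libraries and 58 over the EV libraries, and FP3, a protein that binds metals through a farnesylated tail, had 0 and 39.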
